A study of Mus musculus with 8 samples.

Results

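The CoREST complex and the factors that bring the histone demethylase KDM1A to chromatin were followed in RNA from pools of 2-cell mouse embryos that differed in their fathers. The 10 genes were listed by symbol, with earlier results of these data known. They were the CoREST scaffolds Rcor1, Rcor2 and Rcor3, the deacetylases Hdac1 and Hdac2, and the complex subunits Phf21a and Zmym2. The recruiting factors Rest, Insm1 and Zfp217 completed the list. All 10 had a probeset annotated to that symbol alone, 1 probeset each, among 14995 genes with such a probeset. All 10 also passed the filter on low values, a mean over the arrays above the 30th percentile of all probesets (2.07 on the log2 scale), as did 11444 genes in all.

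Embryos came from C57BL/6 females that had received 5 IU of eCG and of hCG. The females were mated with males labelled KDM1A TG, which carried a KDM1A transgene (3 pools, titled TG3), with nonTG males, their littermates without the transgene (2 pools, titled nonTG3), or with C57BL/6 males (3 pools). Oviducts were flushed 46 to 48 hours after hCG and 26 embryos on average were pooled for 1 array. All mothers were C57BL/6, so the groups differ in the sire, and a group is named here after its sire. The sources used here do not give the genotype of the embryos, the ages of the mice or the promoter of the transgene. Nothing in the labels says that pools of a group had different fathers, so p-values measure the spread between pools, which may be technical. With 8 arrays, the number of arrays limits the precision of each value.

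KDM1A (LSD1) demethylates lysine 4 of histone H3, a methyl mark of active promoters and enhancers. On nucleosomes it works with CoREST, whose scaffold proteins RCOR1, RCOR2 and RCOR3 join it to the deacetylases HDAC1 and HDAC2, so that acetyl and methyl marks can be taken off together. Transcription factors such as REST and INSM1 bring the complex to their DNA sites, and REST is best known for keeping neuronal genes silent outside neurons. Maternal KDM1A is needed in the mouse for development beyond the 2-cell stage.

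Promoter windows of RefSeq (GRCm38.p6, 250 bases before to 50 after a transcript start) matched 7 of the 10 genes, in 10 windows, and Hdac1, Rest and Insm1 are named only. The bases that lie before the annotated gene start are shown for Rcor1, the scaffold whose values spread widest, and for Zmym2, a gene whose arrays of both the KDM1A TG and the nonTG group lay above those of C57BL/6. Both are on the plus strand, Rcor1 at chr12:111039117-111039366 and Zmym2 at chr14:56886353-56886528, and neither stretch overlaps another annotated gene. Capitals mark GC boxes (GGGCGG, or CCGCCC on the other strand) and CCAAT boxes (CCAAT, or ATTGG on the other strand), which do not share letters with each other.
Rcor1: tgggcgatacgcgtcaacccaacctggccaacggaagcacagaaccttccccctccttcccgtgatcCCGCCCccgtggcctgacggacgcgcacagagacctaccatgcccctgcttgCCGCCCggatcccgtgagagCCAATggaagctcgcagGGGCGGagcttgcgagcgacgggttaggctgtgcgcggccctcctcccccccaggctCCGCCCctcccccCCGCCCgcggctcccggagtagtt
Zmym2: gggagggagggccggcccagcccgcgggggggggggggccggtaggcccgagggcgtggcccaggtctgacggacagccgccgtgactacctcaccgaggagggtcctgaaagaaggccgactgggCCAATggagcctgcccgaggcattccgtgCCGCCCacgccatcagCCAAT
The Rcor1 stretch of 250 bases held 5 GC boxes and 1 CCAAT box, and the Zmym2 stretch of 176 bases held 1 GC box and 2 CCAAT boxes. Of the 10 full windows, of which the 2 of Zmym2 overlap, 8 held a GC box, against 35.7% of 32851 windows of the same length, and 3 held CCAAT, against 37.4%. TTCAGCACC, the left part of the DNA site of REST, was in 0 of the 10 windows and in 0.371% of all windows. The 10 windows held between 1 and 49 CG pairs, with 31 for Rcor1, 36 for Hdac2 and a median of 7 over all windows. A match describes the letters only, and its absence from a window of this size says nothing about the factor.

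The deposited values were log2 expression summaries per probeset. Array medians ran from 2.73 to 2.86, while the interquartile range was 2.38 and 2.60 in KDM1A TG replicates 1 and 3, against 1.87 to 2.09 in the other 6 arrays. Changes without these 2 arrays are given for Hdac3 and for those of the 10 genes whose sign changed. The marker calls and the shares of all genes used as background are from all 8 arrays and were not repeated without them. Of 10 oocyte and early embryo markers, 9 had a probeset. All 9, among them Zp3, Gdf9, Dppa3, Zfp352 and Zscan4d, passed the filter, as did 11444 of all 14995 genes. Passing the filter therefore does not identify the tissue. Over the 8 arrays the 9 markers averaged from 2.87 (Zfp352) to 9.18 (Dppa3), with Zscan4d at 3.80. Their mean level was 4.79, 5.51 and 4.68 in KDM1A TG, 4.06 and 4.66 in nonTG, and 5.42, 4.46 and 5.15 in C57BL/6 pools, lowest in nonTG replicate 1. In nonTG against C57BL/6, 0 of the 9 changes were above 0, where 53.2% of all genes were (median -0.62, against 0.04 for all genes). In KDM1A TG against nonTG 9 of 9 were, where 65.4% of all genes were (median 0.69, against 0.16). In both, limma called 0 of 9, and 2 and 3 had an unadjusted p under 0.05, where 8.22% and 6.41% of all genes did. Kdm1a itself was not analysed here, and no other check of the transgene was made. Of 10 oviduct epithelial markers 9 passed the filter, with mean levels of 6.67, 6.04 and 6.74 in KDM1A TG, 6.59 and 6.33 in nonTG, and 5.97, 6.40 and 5.42 in C57BL/6 pools. Their changes were above 0 for 9 of 9 in KDM1A TG and 8 of 9 in nonTG against C57BL/6, where 64.9% and 53.2% of all genes were. All 10 stromal and muscle markers passed too, with 10 and 7 of 10 changes above 0 in these comparisons, beside the same shares of all genes. Their mean levels were 4.74, 4.71 and 6.14 in KDM1A TG, 5.32 and 4.02 in nonTG, and 4.44, 4.54 and 3.67 in C57BL/6 pools. The oviduct marker mean was above the oocyte and embryo marker mean in every pool. Means of different genes do not measure shares of RNA, and how much of a value came from oviduct cells was not tested. In such pools, fewer cells of a type and less RNA per cell cannot be told apart.

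Differences between sires were tested for all 11444 genes with limma, on 1 fit of the 8 arrays, two-sided, with Benjamini-Hochberg adjustment over all genes and a threshold of 0.05. None of the 10 genes passed in any comparison. With KDM1A TG against C57BL/6, 0 of 10 passed by limma, where 0.725% of all genes did, and 0 of 10 also had an unadjusted p under 0.05, where 14.2% did. With nonTG against C57BL/6, 0 of 10 passed, where 0.131% of all genes did, and 0 of 10 had an unadjusted p under 0.05, where 8.22% did. With KDM1A TG against nonTG, 0 of 10 passed, where 0.0437% of all genes did, and again 0 had an unadjusted p under 0.05, where 6.41% did. A moderated F test over the 3 groups called 0 of the 10 and 0.778% of all genes, and 0 of the 10 had an unadjusted p under 0.05, where 11.1% did. A count of 0 of 10 is near each of these background shares, and a missed threshold does not show that their levels were equal.

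**Figure D1:**
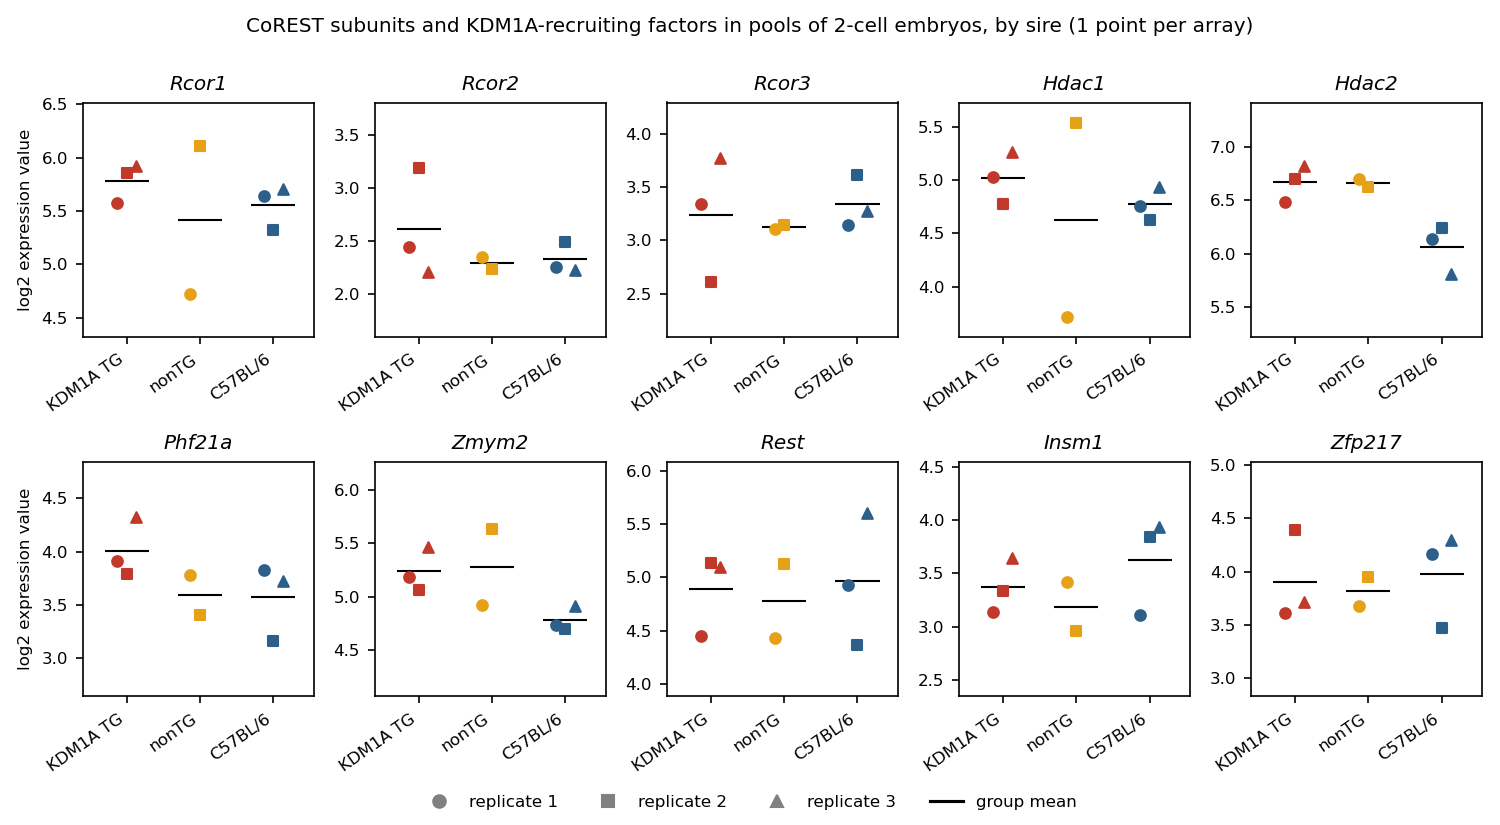
Log2 expression values of the 10 genes, 1 panel per gene and 1 point per array, for KDM1A TG, nonTG and C57BL/6 sires from left to right, with the group mean as a bar; every panel spans the same log2 distance. Hdac2 and Zmym2 have all KDM1A TG and nonTG points above all C57BL/6 points, and the 2 nonTG points lie farthest apart for Hdac1 and Rcor1.

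Hdac2 and Zmym2 were the only ones of the 10 whose arrays did not overlap between KDM1A TG and C57BL/6, and also between nonTG and C57BL/6, in both cases on the higher side. Arrays of KDM1A TG lay wholly above those of C57BL/6 for 14.5% of all genes and apart in either direction for 19.8%, and arrays of nonTG for 15.4% and 24.8%. So 2 of 10 is near the background in each comparison, which share their C57BL/6 arrays. Neither gene passed limma's test.

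Hdac2 encodes a deacetylase of the CoREST, NuRD and SIN3 complexes, and its gene lies on chromosome 10. Its log2 value was 6.49, 6.70 and 6.83 in KDM1A TG pools and 6.70 and 6.63 in nonTG pools, against 6.14, 6.25 and 5.81 in C57BL/6 pools. The lowest KDM1A TG pool thus stood above the highest C57BL/6 pool, and C57BL/6 replicate 3 was the lowest of all. The change of KDM1A TG from C57BL/6 was 0.61 on the log2 scale (SE 0.32), a 1.52-fold difference with a 95% interval from 0.98 to 2.37, and its adjusted p by limma was 0.375. For nonTG it was 0.60 (SE 0.36, 1.52-fold, 95% interval 0.92 to 2.49, adjusted p = 0.679 by limma). KDM1A TG and nonTG differed by 0.01 (95% interval -0.71 to 0.72), and their arrays overlapped. Hdac2 varied little within groups: its residual SD of 0.18 was lower than that of all but 2.72% of genes tested.

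The oviduct marker mean given above was also higher in most of the same pools, though C57BL/6 replicate 2 stood above KDM1A TG replicate 2 and nonTG replicate 2. Fitted beside that mean, the changes of Hdac2 from C57BL/6 were 0.46 for KDM1A TG and 0.46 for nonTG, and those of Zmym2 were 0.50 and 0.54. After cyclic loess Hdac2 stood at 0.24 in KDM1A TG and 0.39 in nonTG, and Zmym2 at 0.12 and 0.39.

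Zmym2, on chromosome 14, encodes a zinc finger protein that binds CoREST together with KDM1A. It had 5.18, 5.06 and 5.46 in KDM1A TG pools and 4.92 and 5.63 in nonTG pools, against 4.73, 4.70 and 4.91 in C57BL/6 pools. The gap was small in the nonTG group, where replicate 1 lay next to the highest C57BL/6 array and replicate 2 was the highest of all 8. The log2 change was 0.46 for KDM1A TG (SE 0.32, 1.37-fold, 95% interval 0.88 to 2.14, adjusted p = 0.498 by limma) and 0.50 for nonTG (SE 0.36, 1.41-fold, 95% interval 0.86 to 2.33, adjusted p = 0.718 by limma). KDM1A TG and nonTG pools differed by -0.04 (95% interval -0.76 to 0.68).

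Hdac1, on chromosome 4, encodes the partner deacetylase of HDAC2. It read 5.03, 4.78 and 5.26 in KDM1A TG pools, 3.72 and 5.54 in nonTG pools, and 4.76, 4.62 and 4.93 in C57BL/6 pools. The lowest and the highest of the 8 arrays were thus the 2 nonTG pools, 1.82 apart on the log2 scale, and 90.6% of genes tested had a smaller range over the arrays. The change from C57BL/6 was 0.25 for KDM1A TG (SE 0.34, adjusted p = 0.727 by limma) and -0.14 for nonTG (SE 0.38, adjusted p = 0.922 by limma). The nonTG value rests on which pool is kept: it was 0.76 without nonTG replicate 1 and -1.05 without nonTG replicate 2. KDM1A TG against nonTG was 0.39 (SE 0.38, adjusted p = 0.853 by limma), and -0.51 and 1.30 without nonTG replicates 1 and 2.

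Rcor1, on chromosome 12, encodes the founding CoREST scaffold. The log2 value of Rcor1 was 5.58, 5.86 and 5.92 in KDM1A TG pools, 4.73 and 6.11 in nonTG pools, and 5.64, 5.32 and 5.70 in C57BL/6 pools. As with Hdac1, nonTG replicate 1 was the lowest array and nonTG replicate 2 the highest, and the KDM1A TG and C57BL/6 arrays overlapped. The oocyte and embryo marker mean was 4.06 in nonTG replicate 1, the lowest of all pools, and 4.66 in nonTG replicate 2. Whether it bears on the values of Rcor1 or Hdac1 was not tested. The change of Rcor1 from C57BL/6 was 0.23 for KDM1A TG (SE 0.33, 95% interval -0.43 to 0.89, adjusted p = 0.743 by limma) and -0.14 for nonTG (SE 0.37, adjusted p = 0.923 by limma). Without nonTG replicate 1 the nonTG change was 0.56, and without nonTG replicate 2 it was -0.83. Described over the 8 arrays, which share groups and scaling, Rcor1 and Hdac1 had the closest profiles of any pair among the 10 (Pearson r = 0.94). Over the 6 arrays that are not nonTG, r was 0.64, so the closeness rests in part on the 2 nonTG pools.

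Rcor2, on chromosome 19, encodes a scaffold known from mouse embryonic stem cells and neural progenitors. Its value was 2.44, 3.19 and 2.21 in KDM1A TG pools, 2.35 and 2.24 in nonTG pools, and 2.26, 2.50 and 2.23 in C57BL/6 pools. KDM1A TG replicate 2 stood apart from the other 7 arrays, which lay between 2.21 and 2.50, not far above the filter level of 2.07. The change of KDM1A TG from C57BL/6 was 0.28 (SE 0.33, adjusted p = 0.668 by limma), and -0.0018 without that replicate. That of nonTG was -0.035 (SE 0.36, adjusted p = 0.983 by limma).

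Rcor3, on chromosome 1, encodes the third scaffold, which can compete with RCOR1 for KDM1A. It had 3.34, 2.61 and 3.78 in KDM1A TG pools, 3.11 and 3.15 in nonTG pools, and 3.14, 3.62 and 3.28 in C57BL/6 pools. KDM1A TG pools held both the lowest and the highest array, and the lowest was replicate 2, the pool highest for Rcor2. The change from C57BL/6 was -0.10 for KDM1A TG (SE 0.33, adjusted p = 0.89 by limma) and -0.22 for nonTG (SE 0.37, adjusted p = 0.87 by limma). Without KDM1A TG replicate 2 the first of these was 0.22.

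Phf21a, on chromosome 2, encodes BHC80, the subunit that reads unmethylated lysine 4 of histone H3. Its value was 3.92, 3.79 and 4.32 in KDM1A TG pools, 3.78 and 3.41 in nonTG pools, and 3.83, 3.16 and 3.73 in C57BL/6 pools. It was the only 1 of the 10 whose KDM1A TG arrays did not overlap those of nonTG, by a narrow gap, where KDM1A TG arrays lay above nonTG arrays for 16% of all genes and apart in either direction for 22.4%. KDM1A TG against nonTG gave a log2 change of 0.42 (SE 0.36, 95% interval -0.31 to 1.14, adjusted p = 0.847 by limma). Against C57BL/6 the change was 0.44 for KDM1A TG (SE 0.32, adjusted p = 0.514 by limma) and 0.02 for nonTG (SE 0.36, adjusted p = 0.99 by limma).

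The 3 recruiting factors had overlapping arrays in all 3 comparisons. Rest, on chromosome 5, encodes the repressor of neuronal genes that binds CoREST through its C terminus. It had 4.45, 5.13 and 5.10 in KDM1A TG pools, 4.43 and 5.13 in nonTG pools, and 4.93, 4.36 and 5.60 in C57BL/6 pools. Its widest group was C57BL/6, which held both the lowest and the highest array. Rest changed from C57BL/6 by -0.07 in KDM1A TG (SE 0.34, adjusted p = 0.926 by limma) and by -0.19 in nonTG (SE 0.37, adjusted p = 0.893 by limma).

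Insm1, on chromosome 2, encodes a zinc finger factor of neuroendocrine cells whose N-terminal SNAG peptide binds KDM1A. Its value was 3.13, 3.34 and 3.65 in KDM1A TG pools and 3.42 and 2.96 in nonTG pools, against 3.11, 3.84 and 3.94 in C57BL/6 pools. The 2 highest arrays were C57BL/6 pools, and C57BL/6 replicate 1 lay below all but 1 of the others. Insm1 had the lowest change of the 10 in both comparisons with C57BL/6: -0.26 in KDM1A TG (SE 0.33, 95% interval -0.91 to 0.40, adjusted p = 0.706 by limma) and -0.44 in nonTG (SE 0.37, 95% interval -1.17 to 0.29, adjusted p = 0.751 by limma).

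Zfp217, on chromosome 2, encodes a zinc finger protein found with CoREST, KDM1A and CtBP. It read 3.61, 4.39 and 3.71 in KDM1A TG pools, 3.68 and 3.95 in nonTG pools, and 4.16, 3.48 and 4.29 in C57BL/6 pools. Highest was KDM1A TG replicate 2 and lowest C57BL/6 replicate 2. The change from C57BL/6 was -0.07 in KDM1A TG (SE 0.33, adjusted p = 0.926 by limma) and -0.16 in nonTG (SE 0.37, adjusted p = 0.907 by limma). Rest and Zfp217 had the second closest profiles among the 10 (Pearson r = 0.80 over the 8 arrays, as a description).

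**Figure D2:**
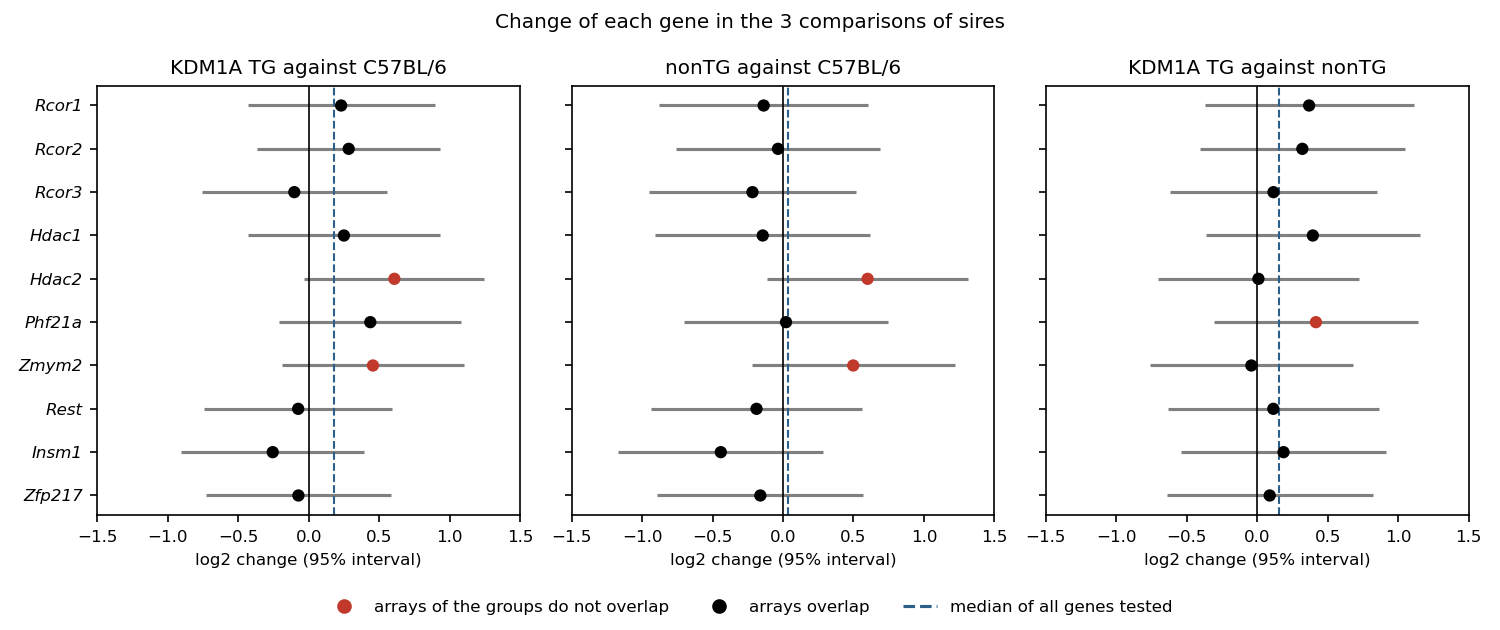
Log2 change of each of the 10 genes (points) with its 95% interval (lines) for KDM1A TG against C57BL/6, nonTG against C57BL/6 and KDM1A TG against nonTG; red points mark genes whose arrays do not overlap between the groups, and the dashed line is the median of all 11444 genes. Each interval includes 0, and the highest points are Hdac2 and Zmym2 in both comparisons with C57BL/6.

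Taking the 10 genes as a list, 6 had a change above 0 in KDM1A TG against C57BL/6, where 64.9% of all genes did, and the list's median was 0.24, against 0.18 for all genes. In nonTG against C57BL/6, 3 of 10 were above 0, where 53.2% of all genes were, with a median of -0.14 for the list and 0.04 for all genes. In KDM1A TG against nonTG, 9 of 10 were above 0, where 65.4% of all genes were, with a median of 0.15 for the list and 0.16 for all genes. Quantile normalization and cyclic loess moved the median of all genes in KDM1A TG against C57BL/6 to 0.09 and 0.07. Relative to all genes, the list then stood at -0.13 and -0.17 in that comparison, against 0.06 with values as deposited. A filter at the 50th percentile put the list at -0.067 relative to all genes in that comparison. With array weights it stood at -0.051, without C57BL/6 replicate 2 at -0.024 and without KDM1A TG replicate 2 at -0.028, but at 0.32 beside the oviduct marker mean. The direction of the list against all genes in KDM1A TG against C57BL/6 therefore depends on the scaling, the filter, the array weights and single pools. In nonTG against C57BL/6 the list stood between -0.23 and -0.18 relative to all genes under the scalings tried, and in KDM1A TG against nonTG between -0.019 and -0.0065. Other settings changed these directions too. In nonTG against C57BL/6 the list stood at 0.14 beside the oviduct marker mean and at 0.035 without nonTG replicate 1. In KDM1A TG against nonTG it stood at -0.17 without nonTG replicate 1 and at 0.18 without KDM1A TG replicate 1. The 95% intervals of the 10 genes lay between -0.91 and 1.25 on the log2 scale for KDM1A TG against C57BL/6, between -1.17 and 1.31 for nonTG against C57BL/6, and between -0.76 and 1.15 for KDM1A TG against nonTG.

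The order of the groups differed between genes, and no neighbours in any order differed beyond the spread of the pools by limma's test. KDM1A TG had the highest mean for Rcor1, Rcor2, Hdac1, Hdac2 and Phf21a, nonTG for Zmym2, and C57BL/6 for Rcor3, Rest, Insm1 and Zfp217. The lowest mean was in nonTG for all but Hdac2, Phf21a and Zmym2, whose lowest mean was in C57BL/6. The means of the 2 extreme groups lay 0.61 apart for Hdac2 and 0.16 apart for Zfp217.

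**Figure D3:**
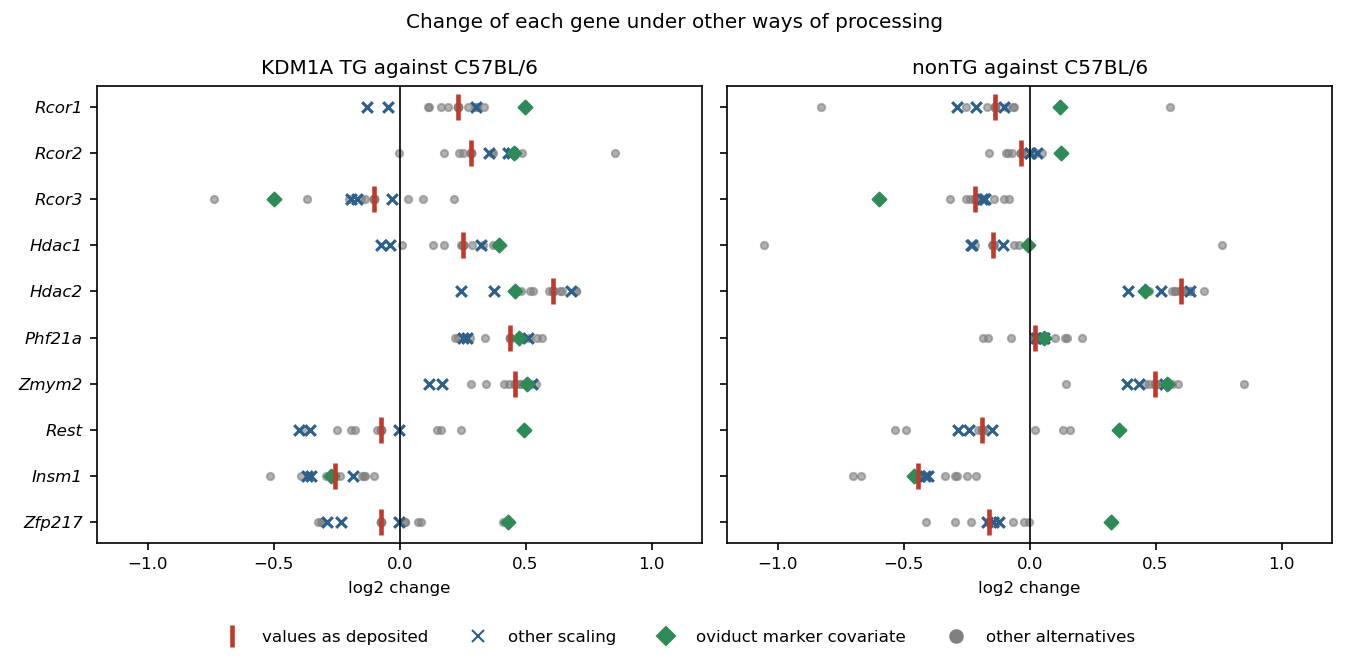
Log2 change of each of the 10 genes against C57BL/6 for KDM1A TG (left) and nonTG (right), with values as deposited (red bars), after other scalings (blue crosses), fitted beside the oviduct marker mean (green diamonds) and under the other alternatives (grey points). Hdac2, Zmym2 and, in KDM1A TG, Phf21a stay above 0 in all of them, and Insm1 and, in nonTG, Rcor3 stay below 0. Rcor1, Rcor2, Hdac1, Rest and Zfp217 lie on both sides in each panel, as do Rcor3 in KDM1A TG and Phf21a in nonTG.

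Genes that work beside CoREST were described with 4 further lists, also chosen with earlier results of these data known. Of 15 other genes of CoREST-type and related corepressor complexes, 6 had a probeset, and all 6 were tested. With KDM1A TG against C57BL/6, 1 of the 6 was called, on the higher side, where 0.655% of all genes were, and all 6 had a change above 0, with a median of 0.60 against 0.18 for all genes. The gene called was Hdac3, which encodes the deacetylase of the NCoR and SMRT corepressors and is not a CoREST subunit. Hdac3 read 5.11, 4.46 and 5.56 in KDM1A TG pools, 4.42 and 4.71 in nonTG pools, and 3.38, 4.08 and 3.54 in C57BL/6 pools. Every KDM1A TG and nonTG pool stood above every C57BL/6 pool. Its rise in KDM1A TG was 1.38 on the log2 scale (SE 0.33, adjusted p = 0.0225 by limma), and its change in nonTG was 0.90 (SE 0.37, adjusted p = 0.453 by limma). KDM1A TG against nonTG was 0.48 (SE 0.37, adjusted p = 0.847 by limma), a difference that did not pass.

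The call of Hdac3 depends on processing and on single pools. It did not pass after quantile normalization (log2 change 1.16, adjusted p = 0.255 by limma), after cyclic loess (1.09, adjusted p = 0.282) or when fitted beside the oviduct marker mean (0.96, adjusted p = 0.433). Leaving out any of 4 single pools also ended the call: KDM1A TG replicate 1 (1.34, adjusted p = 0.0896 by limma), KDM1A TG replicate 3 (1.12, adjusted p = 0.507), C57BL/6 replicate 1 (1.23, adjusted p = 0.183) or C57BL/6 replicate 3 (1.31, adjusted p = 0.1). Without both KDM1A TG replicates 1 and 3 its change was 0.79 (adjusted p = 0.998 by limma), from 1 remaining pool assumed to vary like the other groups. With array weights its change was 1.58 (adjusted p = 8.09e-05 by limma), and without C57BL/6 replicate 2 it was 1.58 (adjusted p = 0.00556). The count of called genes on this list was 3 of 6 with array weights, where 1694 of all 11444 genes were called. Without C57BL/6 replicate 2 it was 2 of 6, where 254 of all genes were called, against 83 in the fit reported. It was 0 of 6 under the scalings, the covariate and the single pools left out that ended the call of Hdac3.

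Others on that list did not pass. Glyr1, which encodes a nucleosome-binding cofactor of the demethylase KDM1B, had a log2 change of 1.05 in KDM1A TG against C57BL/6 (SE 0.33, adjusted p = 0.116 by limma) and 0.41 in nonTG against C57BL/6 (adjusted p = 0.771). Glyr1 pools read 4.75, 4.36 and 5.09 in KDM1A TG and 3.69 and 4.49 in nonTG, against 3.75, 4.07 and 3.22 in C57BL/6. Mier1, which encodes an HDAC1- and HDAC2-binding protein, had changes of 0.50 in KDM1A TG (adjusted p = 0.469 by limma) and 0.83 in nonTG (adjusted p = 0.505). Mier2, its paralog, had changes of 0.05 in KDM1A TG (adjusted p = 0.945 by limma) and -0.77 in nonTG (adjusted p = 0.578). In nonTG against C57BL/6 and in KDM1A TG against nonTG, 0 of the 6 were called by limma. An unadjusted p under 0.05 was reached by 3 of the 6 in KDM1A TG against C57BL/6, where 14.2% of all genes reached it, by 3 in nonTG against C57BL/6 (8.22% of all genes) and by 2 in KDM1A TG against nonTG (6.41%).

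Of 18 SNAG-domain and other factors that bind KDM1A, 10 had a probeset and 8 were tested, and 0 were called by limma in any comparison. An unadjusted p under 0.05 was reached by 1 of the 8, in KDM1A TG against C57BL/6, where 14.2% of all genes reached it. That was Esr1, the estrogen receptor gene, with a change of 0.93 (SE 0.33, adjusted p = 0.192 by limma), and with 0.64 in nonTG against C57BL/6 (adjusted p = 0.675). The nuclear receptor gene Nr2e1 had changes of -0.58 in KDM1A TG and -0.37 in nonTG, and the SNAG factor genes Scrt2 and Snai3 had -0.54 and -0.16 in KDM1A TG and -0.45 and 0.45 in nonTG. The list's median was -0.15 for KDM1A TG against C57BL/6 and -0.26 for nonTG against C57BL/6, where all genes had 0.18 and 0.04. For KDM1A TG against nonTG it was 0.03, against 0.16. Pools read 2.06 to 2.92 for Snai3, 1.68 to 3.02 for Nr2e1 and 2.27 to 3.46 for Scrt2, beside a filter level of 2.07, and 4.78 to 6.75 for Esr1. The median of all genes in KDM1A TG against C57BL/6 was 0.06 with no filter and 0.30 with a filter at the 50th percentile. This list was not set against genes of like level.

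Of 12 genes of the SIN3 complex, which also holds HDAC1 and HDAC2, 6 were tested and 0 were called by limma in any comparison, and an unadjusted p under 0.05 was reached by 1, in KDM1A TG against C57BL/6, near the 14.2% of all genes. That was Suds3, a SIN3 subunit gene, with a change of 0.69 (SE 0.33, adjusted p = 0.328 by limma), and 0.35 in nonTG against C57BL/6. The subunit gene Brms1l had changes of 0.53 in KDM1A TG and 0.41 in nonTG, the scaffold gene Sin3a 0.30 and -0.17, and Brms1 0.06 and -0.35. The list's median was 0.24 in KDM1A TG against C57BL/6, 0.01 in nonTG against C57BL/6 and 0.29 in KDM1A TG against nonTG.

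REST and CoREST are known to silence neuronal genes with REST sites outside neurons. Whether the genes listed here were bound by REST or silenced in these pools was not tested. Of 25 listed, 18 had a probeset and 13 were tested, and 0 were called by limma in any comparison. An unadjusted p under 0.05 was reached by 0 of the 13 in KDM1A TG against C57BL/6, by 1 in nonTG against C57BL/6 and by 2 in KDM1A TG against nonTG, where 14.2%, 8.22% and 6.41% of all genes reached it. In KDM1A TG against C57BL/6, 3 of the 13 had a change above 0, where 64.9% of all genes did, and the median was -0.28, against 0.18 for all genes. In nonTG against C57BL/6, 4 of 13 were above 0, where 53.2% of all genes were, with a median of -0.29. Both comparisons share the C57BL/6 pools. KDM1A TG against nonTG had a median of 0.05 for the list. The median of all genes in KDM1A TG against C57BL/6 was 0.06 with no filter on low values and 0.30 with a filter at the 50th percentile. It thus depends on the level of the genes counted, and the list was not set against genes of like level. The lowest p was that of Stmn3, a stathmin family gene, with a change of -0.98 in nonTG against C57BL/6 (SE 0.36, adjusted p = 0.374 by limma) and -0.20 in KDM1A TG against C57BL/6 (adjusted p = 0.778). Stmn3 read 5.04, 5.51 and 4.83 in KDM1A TG pools and 4.27 and 4.41 in nonTG pools, against 5.56, 4.84 and 5.57 in C57BL/6 pools. Gdap1, a mitochondrial protein gene, had changes of 0.10 in KDM1A TG and -0.70 in nonTG. The adhesion molecule gene L1cam had -0.49 and -0.57, and the neuronal tubulin gene Tubb3 had -0.43 and 0.12. Of 6 neuron and neuroendocrine markers 2 had a probeset, and their mean level was 2.61, 3.14 and 2.71 in KDM1A TG, 3.01 and 2.83 in nonTG, and 2.64, 2.53 and 3.78 in C57BL/6 pools.

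**Figure D4:**
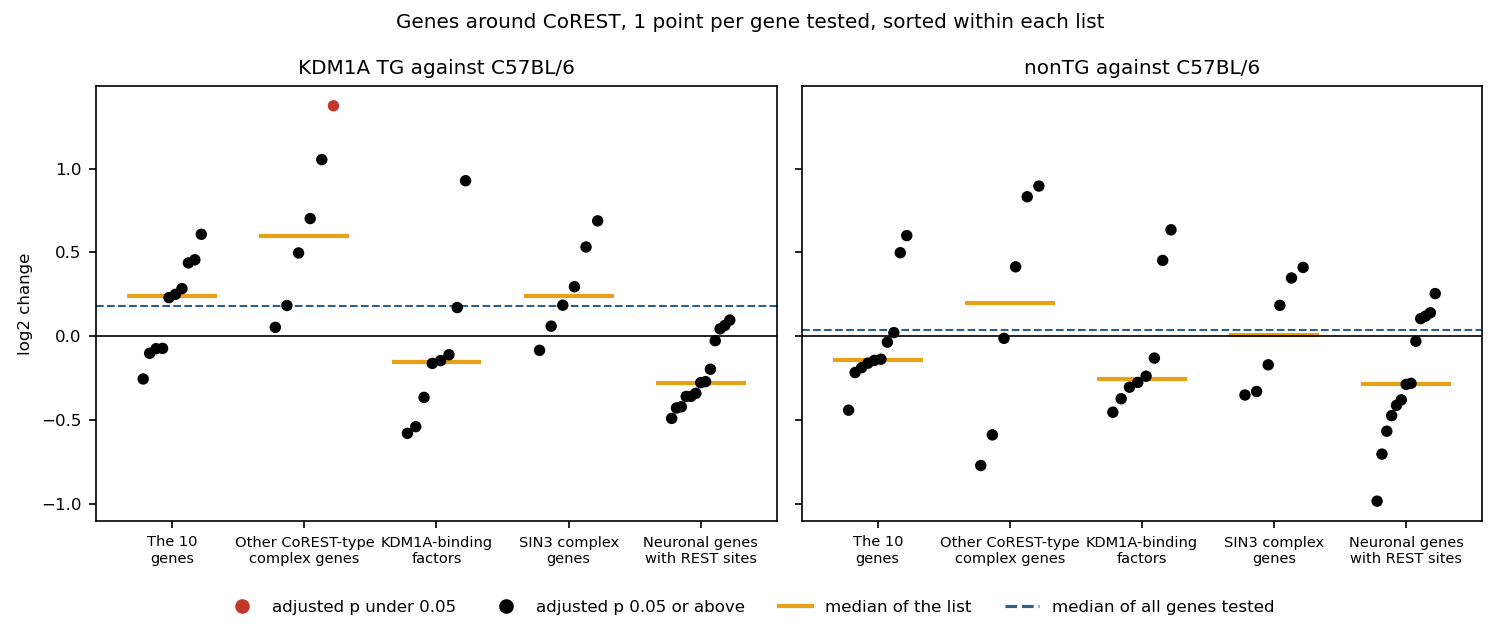
Log2 change against C57BL/6 of the 10 genes and of the tested genes of 4 related lists, for KDM1A TG (left) and nonTG (right), 1 point per gene sorted within its list, with the median of the list (yellow) and of all genes tested (dashed). The single red point is Hdac3, and most of the 13 neuronal genes with REST sites lie below 0.

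For each of the 10 genes, the 2 genes with the highest Pearson r over the 8 arrays were found among all genes tested, so values near 1 come from the choice itself. Rcor1 was most like Phf3 (r = 0.97) and Phf1 (r = 0.96), genes of PHD finger proteins, and Hdac1 most like Zfp46 and Imp3 (r = 0.95 each). Hdac2 was most like Clint1 (r = 0.98), a clathrin interactor gene, and Cwh43 (r = 0.96). Zmym2 was most like Prkar1a, the gene of a regulatory subunit of protein kinase A, and Fbxo3, an F-box gene (r = 0.98 each). Phf21a was most like Nacc1 (r = 0.98) and the phosphatase gene Dusp1 (r = 0.97). Rcor2 was most like Prex2 (r = 0.98) and Slc66a2 (r = 0.92), and Rcor3 most like Slc9a8 and the interferon regulatory factor gene Irf3 (r = 0.96 each). Rest was most like Tmem201 (r = 0.98) and E2f5 (r = 0.97), Insm1 most like Tbc1d16 (r = 0.97) and Lemd2 (r = 0.94), and Zfp217 most like Trim43a (r = 0.97) and Cop1 (r = 0.96). The 2 genes closest to a given one were not among the other 9 for any of the 10.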

How the data were processed

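The deposited table holds log2 expression values per probeset for 8 Affymetrix arrays, 1 per embryo pool. The tools listed in the submitters' processing notes are R 3.1.0, oligo, RMA and limma, with no role given. Per the labels, double-stranded cDNA from amplified cRNA was labelled with biotin. The sources used here do not state the background correction, filters or genome build, and no detection calls were used. Of 22961 probesets, 15745 had 1 symbol in the platform annotation, 1320 several and 5896 none here, and 15621 matched RefSeq genes of GRCm38.p6 by gene ID. A gene with several probesets was represented by the brightest. Values were not rescaled. The linear model (lmFit, eBayes; limma 3.58.1, R 4.3.3) had 1 mean per sire group, and was tested on simulated data.

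Text names all 10 genes, up to 4 genes of each related list by smallest unadjusted p, and for each of the 10 its 2 most alike genes by Pearson r, leaving out predicted genes, small RNAs and olfactory and vomeronasal receptors. The 5 embryo markers named were chosen after their values were seen. The genes, lists and tests were chosen with earlier results of these data known. Of 8 cumulus markers 1 was tested, of 8 blood markers 6 and of 7 sperm markers 1. With KDM1A TG against C57BL/6 limma called 1 blood marker lower and 1 stromal marker higher, and no oocyte and embryo, oviduct, cumulus, sperm or neuron marker. With nonTG against C57BL/6 and KDM1A TG against nonTG it called none of the markers. The alternatives varied the filter, scaling, variance model, array weights, arrays fitted, probeset rule, oviduct covariate, replicate number as a block, and the arrays left out.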

Additional observations from a re-analysis of the deposited data

How the results depend on the processing

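No gene of the 10 passed by limma under any of the 20 alternatives in any of the 3 comparisons, or under the 19 that allow the F test, and the lowest adjusted p in the comparisons was 0.181. Of 597 log2 changes of the 10 genes and settings, 247 could not differ or did not differ from the value reported. Of the other 350, 289 kept their sign and 61 changed it. Hdac2, Zmym2 and Insm1 kept theirs in both comparisons with C57BL/6, and Phf21a in KDM1A TG. The cause of the changes below was not tested.

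Quantile normalization gave a median of the 10 changes of -0.041 in KDM1A TG against C57BL/6, with Rcor1 at -0.044 and Hdac1 at -0.037, and Rcor2 at 0.0027 in nonTG against C57BL/6. In KDM1A TG against nonTG it gave Rcor3 -0.0046, Hdac2 -0.15, Rest -0.12 and Zfp217 -0.086. Cyclic loess gave a median of -0.10, Rcor1 -0.13 and Hdac1 -0.072 in KDM1A TG against C57BL/6, Rcor2 0.030 in nonTG against C57BL/6, and Hdac2 -0.15, Rest -0.12 and Zfp217 -0.12 in KDM1A TG against nonTG. Median centring gave Rcor2 0.0017 in nonTG against C57BL/6. Array weights gave Rcor3 0.093 in KDM1A TG and Phf21a -0.074 in nonTG against C57BL/6, and Hdac2 -0.059, Rest -0.071 and Zfp217 -0.077 in KDM1A TG against nonTG. Beside the oviduct marker mean, the median was 0.46 in KDM1A TG and 0.12 in nonTG against C57BL/6, with Rest at 0.49 and 0.35 and Zfp217 at 0.43 and 0.32, and Rcor1 at 0.12 and Rcor2 at 0.13 in nonTG. Without KDM1A TG replicates 1 and 3, Rest was 0.16 and Zfp217 0.41 in KDM1A TG against C57BL/6, and Rcor3 was -0.52 and Hdac3 -0.10 in KDM1A TG against nonTG.

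Deviations of same-numbered arrays correlated between -0.38 and 0.18. With 2 or 3 arrays per group, these correlations cannot show whether the replicate numbers pair the pools. The replicate block gave Rest 0.022 in nonTG against C57BL/6, and Rcor3 -0.0018 and Rest -0.096 in KDM1A TG against nonTG. Over all genes it called 76, 23 and 4 in the 3 comparisons, where 83, 15 and 5 were called without it.

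Leaving out 1 array at a time moved the median of the 10 changes between -0.22 and 0.068 in nonTG against C57BL/6 and between -0.0025 and 0.32 in KDM1A TG against nonTG. In KDM1A TG against C57BL/6 the range was 0.14 to 0.29 for the median, -0.0018 to 0.48 for Rcor2, -0.37 to 0.22 for Rcor3, -0.38 to 0.24 for Rest and -0.32 to 0.086 for Zfp217. In nonTG against C57BL/6 it was -0.83 to 0.56 for Rcor1, -0.094 to 0.048 for Rcor2, -1.05 to 0.76 for Hdac1, -0.18 to 0.21 for Phf21a and -0.53 to 0.16 for Rest. In KDM1A TG against nonTG it was -0.33 to 1.06 for Rcor1, -0.15 to 0.43 for Rcor3, -0.51 to 1.30 for Hdac1, -0.070 to 0.10 for Hdac2, -0.40 to 0.31 for Zmym2, -0.23 to 0.46 for Rest, -0.044 to 0.42 for Insm1 and -0.15 to 0.23 for Zfp217.

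Counts over all genes ranged from 1 to 1694 in KDM1A TG against C57BL/6, from 1 to 80 in nonTG against C57BL/6 and from 2 to 17 in KDM1A TG against nonTG. A filter at the 50th percentile left 9 of the 10 genes, without Rcor2, and the rule for several probesets cannot move the 10, which have 1 each.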
